A study of Mus musculus with 12 samples.

Results

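The genes described here are Wnt9a and Wnt3, which encode secreted Wnt ligands, Axin2, which encodes a scaffold that restrains Wnt signalling, and Gm26771, a long non-coding gene antisense to the end of Sfrp2. They were chosen by gene name, with earlier results of these data known. Each name matched 1 row, which gave 4 of the 27942 genes analysed. RNA was sequenced from C2C12, an established line of mouse myoblasts, cells that stop dividing and fuse into myotubes once serum is lowered. Cultures reached 80% density under 10% fetal bovine serum before a switch to 2% horse serum, under which they stayed 7 days. The OI group (n = 3 libraries) received 25 µmol/L 4-octyl itaconate (OI), and the control group (n = 3 libraries) received no OI. OI is an ester of itaconate that enters cells and is a known activator of NRF2. Both groups are the same line under the same switch of serum, so the comparison asks how the level of each gene at day 7 differed with and without OI. Whether the 3 libraries of a group stem from separate cultures is not in the labels, so the p-values measure only how these libraries spread, and that spread may be technical.

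Wnt proteins are secreted ligands that bind Frizzled receptors together with LRP co-receptors at the cell surface. In the canonical branch, binding of a Wnt disables the cytoplasmic complex of Axin, APC and the kinases GSK3 and CK1, so that beta-catenin accumulates and switches on target genes with TCF/LEF factors. Axin2 is at once a member of that complex and one of its best-known target genes, which makes it a negative feedback gene and a common readout of the pathway. Sfrp2 encodes a secreted Frizzled-related protein that binds Wnts outside the cell, and Wnt signals are known to act on myoblasts during the formation and repair of muscle.

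The 3 coding genes lie on chromosome 11 and Gm26771 lies on chromosome 3 (GRCm38, the assembly also called mm10, with genes as in GENCODE M21). The stretches below are shown because they show the start sites of the 3 coding genes and the part of Gm26771 that shares no base with Sfrp2. For the coding genes they are the 250 bases before the RefSeq start site (RefSeq, GRCm38.p6, forward strand, 5′ to 3′), with capitals marking matches to the searched motifs. For Gm26771 it is the junction of exon 1, in lower case, and exon 2, in capitals, in its GENCODE transcript.
Wnt9a, chr11:59306680-59306929, forward strand: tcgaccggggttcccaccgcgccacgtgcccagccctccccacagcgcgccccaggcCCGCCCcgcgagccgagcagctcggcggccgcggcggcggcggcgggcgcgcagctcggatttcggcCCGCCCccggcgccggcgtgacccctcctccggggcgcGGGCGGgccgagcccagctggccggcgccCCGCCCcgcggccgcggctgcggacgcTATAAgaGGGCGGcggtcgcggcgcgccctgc
Wnt3, chr11:103773925-103774174, forward strand: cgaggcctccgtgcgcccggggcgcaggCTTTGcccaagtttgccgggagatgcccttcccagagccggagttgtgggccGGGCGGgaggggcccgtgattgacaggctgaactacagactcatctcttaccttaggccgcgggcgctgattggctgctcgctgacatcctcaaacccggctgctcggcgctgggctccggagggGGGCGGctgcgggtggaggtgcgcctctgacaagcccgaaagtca
Axin2, chr11:108920099-108920348, forward strand: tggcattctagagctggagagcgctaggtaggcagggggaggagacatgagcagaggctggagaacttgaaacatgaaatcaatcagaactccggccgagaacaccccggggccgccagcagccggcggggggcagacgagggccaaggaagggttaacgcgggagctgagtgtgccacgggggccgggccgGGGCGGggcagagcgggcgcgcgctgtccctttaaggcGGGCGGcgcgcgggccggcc
Gm26771, last 60 bases of exon 1 (chr3:83789570-83789629) and first 60 bases of exon 2 (chr3:83774605-83774664), reverse strand: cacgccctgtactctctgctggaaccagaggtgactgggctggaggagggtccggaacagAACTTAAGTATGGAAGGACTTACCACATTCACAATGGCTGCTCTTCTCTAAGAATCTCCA

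The motifs searched on both strands were CTTTG (the core of TCF/LEF sites), GGGCGG (the GC box), TATAA (the TATA box) and TGACNNNGC (the core of the NRF2 antioxidant element), and none of the printed matches overlap. Among 32851 RefSeq promoters of the same 250 bases, 48.6% held CTTTG, 32.7% GGGCGG, 22.8% TATAA and 10.2% TGACNNNGC. The Wnt9a window held GGGCGG 5 times, first at 193 and last at 25 bases before the start, and TATAA at 32 bases before it. In the Wnt3 window CTTTG stood at 222 bases before the start, and GGGCGG at 170 and 45 bases. The Axin2 window held GGGCGG at 58 and 20 bases before the start. TGACNNNGC was in none of the 3 windows, and CTTTG was not in those of Wnt9a and Axin2. The windows were rich in CpG dinucleotides, with 48 for Wnt9a, 22 for Wnt3 and 24 for Axin2, against a median of 6 over all promoters. Their GC content was 84.4%, 68.0% and 69.2%, against a median of 52.4%. In CpG count the Wnt9a window stood above 99.8% of all promoters, that of Axin2 above 88.0% and that of Wnt3 above 85.2%. These matches describe letters in these windows and no binding was measured.

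Library sizes recovered from the values ran from 24441000 to 36274000 reads or fragments. In abundant non-coding RNA control replicate 1 differed from the rest. There the genes analysed took 23.9% of the reads, against 5.25% to 5.77% in the other 5 libraries, and the rRNA-derived gene AY036118 was at 70761 FPKM against 691 to 2450 FPKM. FPKM scales the fragments of a gene by its length and by the size of the library, so levels of different genes can be compared per length. Of the cell type markers listed, 2 of 27 myotube markers were among the genes analysed, and none of the 10 myoblast or the 6 fibroblast, 6 adipocyte and 6 osteoblast markers. The labelled cell type could therefore be checked only against Tnnc1, the slow and cardiac troponin C, and H19, an imprinted RNA abundant in developing muscle. Both were high in control, at 110 to 140 FPKM for Tnnc1 and 131 to 136 FPKM for H19. Their values in OI were 21.9 to 24.7 FPKM and 24.1 to 32.1 FPKM (limma adjusted p = 0.000188 and 0.00023).

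Of the members with a measurable level, Gm26771 was lower in OI, while the differences of Wnt9a and Axin2 did not pass the test. Gm26771 stood at 26.1% of its control level, Axin2 at 84.9% and Wnt9a at 97.2%. Wnt3 was at or near 0 in every library. Limma on log2(FPKM + 1), with Benjamini-Hochberg adjustment over the 1737 genes with 1 FPKM or more in at least 3 libraries, called 1 of the 3 tested members at an adjusted p under 0.05, against 2.76% of all genes tested. By direction, 1.61% of all genes tested were called lower and 1.15% higher. Because the members were chosen with earlier results known, these shares and the ranks below are background and no test of the members. In 2 of the 3, Axin2 and Gm26771, the OI values all lay below the control values, against 12.5% of all tested genes for that direction and 23.6% for either. Of the 1737 tested genes 334 were antisense genes, and most reads of each library lay outside the genes analysed. Shares, ranks and percentiles over tested genes therefore do not describe all genes of the cells. In bulk RNA, fewer cells of a type and less RNA per cell cannot be told apart.

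**Figure D1:**
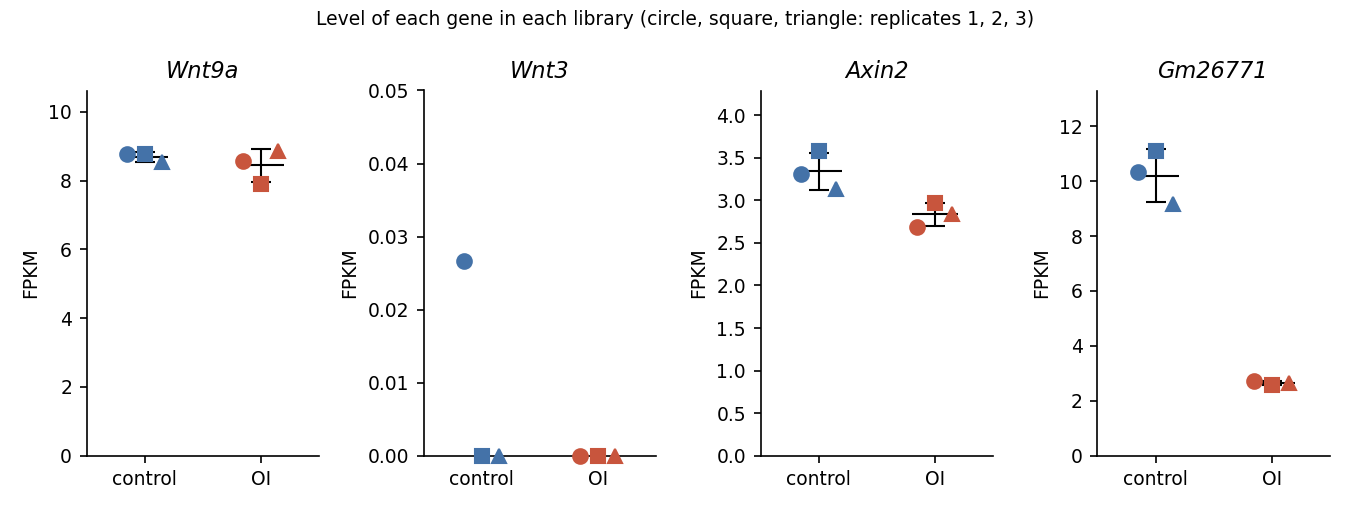
Level in FPKM (linear axes from 0) of Wnt9a, Wnt3, Axin2 and Gm26771 in the 3 control (blue) and 3 OI (red) libraries, with the mean and SD as a bar except for Wnt3. Gm26771 sits between 9.18 and 11.1 FPKM without and between 2.57 and 2.73 FPKM with OI, while the groups of Wnt9a overlap and Wnt3 is at 0 in all libraries but control replicate 1.

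Of 19 Wnt ligands listed, 2 were among the genes analysed. Of these, Wnt9a (ENSMUSG00000000126, chromosome 11, 59306928 to 59333552, forward strand), known in the mouse for its part in joint formation, was the one with a steady level. Control replicates 1 to 3 had 8.78, 8.77 and 8.53 FPKM, and OI replicates 1 to 3 had 8.58, 7.92 and 8.85 FPKM. The groups overlapped, with both the lowest library (OI replicate 2) and the highest (OI replicate 3) in the OI group. The control mean was 8.69 ± 0.138 FPKM and the OI mean 8.45 ± 0.481 FPKM (SD, n = 3 each), from about 712 to 953 reads per library. Its log2 fold change was -0.04 ± 0.07 (SE), with a 95% interval from -0.21 to 0.14 (limma adjusted p = 0.851). On the FPKM + 1 scale that interval spans ratios of OI to control from 0.862 to 1.10, so a change larger than those bounds lies outside it. Without OI replicate 2 the log2 difference was 0.0032, and its sign therefore rested on that library. Without control replicate 1 the log2 difference was -0.03.

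The SD of Wnt9a was larger in OI than in control, with OI replicate 2 farthest from the other libraries. Its mean level was above that of 76.9% of the tested genes, and its fold change stood at the 47.1 percentile of theirs, near the middle. The genes whose levels ran most alike to it over the 6 libraries were Gm45250, a long intergenic RNA (Pearson r = 0.989 on log2(FPKM + 1)), and 2810001G20Rik, an antisense gene (r = 0.965). Both were lowest in OI replicate 2, at 1.40 and 1.41 FPKM. These correlations describe 6 libraries that the genes share, were picked as the highest among all tested genes, and carry no test. The microRNA gene Gm24756, which starts 3499 bases beyond the end of Wnt9a, was at 0 FPKM in all 6 libraries.

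Wnt3 (ENSMUSG00000000125, chromosome 11, 103774150 to 103817957, forward strand), the ligand required in the mouse for the primitive streak, was barely detected. It was listed at 0.0266 FPKM in control replicate 1, which is 2 reads, and at 0 FPKM in control replicates 2 and 3 and in all 3 OI libraries. A count of 0 allows up to 3 reads, which for Wnt3 in the 5 libraries at 0 is between 0.0269 and 0.0380 FPKM depending on their depth, and this limit covers counting error only. No difference between the groups was detectable at this depth (exact two-sided permutation test, p = 1.0, with a smallest possible p of 0.1). Set against that limit in each library at 0, Wnt9a was at least 262- and 274-fold higher in control replicates 3 and 2, and at least 233- to 294-fold higher in OI.

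Axin2 (ENSMUSG00000000142, chromosome 11, 108920349 to 108950783, forward strand), the feedback scaffold and canonical target gene, had lower values in OI that did not pass the test. Control replicates 1 to 3 stood at 3.31, 3.58 and 3.14 FPKM, and OI replicates 1 to 3 at 2.69, 2.97 and 2.84 FPKM. The groups did not overlap, but the lowest control library (3.14) and the highest OI library (2.97) lay close to each other. The means were 3.34 ± 0.222 FPKM and 2.83 ± 0.139 FPKM (SD, n = 3 each), from about 311 to 465 reads per library, a difference of -0.506 FPKM. On the log2(FPKM + 1) scale the difference was -0.18 ± 0.08 (SE), with a 95% interval from -0.38 to 0.02 (limma unadjusted p = 0.0714, adjusted p = 0.328). The exact two-sided permutation test over libraries gave p = 0.1, the smallest that 3 against 3 allows. Ranked from the lowest fold change, Axin2 was number 445 of the tested genes, at the 25.6 percentile. The adjusted p of Axin2 stayed between 0.301 and 0.734 in the 16 alternatives that could be fitted, with the difference below 0 in each, and without control replicate 1 that difference was -0.18 on the log2 scale (limma adjusted p = 0.433).

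An antisense gene inside Axin2, Gm11670, shares 209 exonic bases with it. Gm11670 had 2 reads in each of control replicates 1 and 2 and OI replicate 1 and none in the other 3 libraries, against about 311 to 465 for Axin2. The genes most alike to Axin2 over the 6 libraries were Gm9856, an antisense gene (Pearson r = 0.979), and Gm26669, a long intergenic RNA (r = 0.956). Gm26669 had 18.8, 21.3 and 19.4 FPKM in the control libraries and 16.1, 17.2 and 16.2 FPKM with OI (limma adjusted p = 0.163). In Gm9856 too the groups did not overlap, and its difference did not pass (limma adjusted p = 0.230). As for Wnt9a, these correlations were picked as the highest among all tested genes and carry no test. The separation of the groups in both genes follows in part from that choice.

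Gm26771 (ENSMUSG00000097250, chromosome 3, 83773853 to 83789956, reverse strand), the antisense gene at Sfrp2, was several-fold lower in OI. Control replicates 1 to 3 held 10.3, 11.1 and 9.18 FPKM, and OI replicates 1 to 3 held 2.73, 2.57 and 2.66 FPKM. Every OI library lay far below every control library, and the 3 OI values were close together. In reads these were 273, 366 and 298 in control and 95, 101 and 74 in OI, all of them whole numbers when recovered from the FPKM. The means were 10.2 ± 0.956 FPKM and 2.66 ± 0.0802 FPKM (SD, n = 3 each), a ratio of control to OI of 3.84. Its log2 fold change was -1.61 ± 0.09 (SE), with a 95% interval from -1.83 to -1.40 (limma adjusted p = 0.000353). That corresponds to a 3.06-fold fall on the FPKM + 1 scale, where the added 1 shrinks the change of genes at low levels. With a pseudocount of 5 in place of 1 the log2 fold change was -0.99, and the call held. The exact two-sided permutation test gave p = 0.1, the smallest possible here.

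Among the 1737 tested genes Gm26771 had the tenth lowest fold change and the sixth lowest p. Its mean level was above that of 71.8% of them. Without control replicate 1, the library that stood apart, its log2 fold change was -1.60 (limma adjusted p = 0.00275). Tnnc1 and H19 were lower in OI alongside it, with summed levels of 241 to 276 FPKM in control and 47.9 to 55.1 FPKM in OI, and their part in the difference of Gm26771 was not tested.

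**Figure D2:**
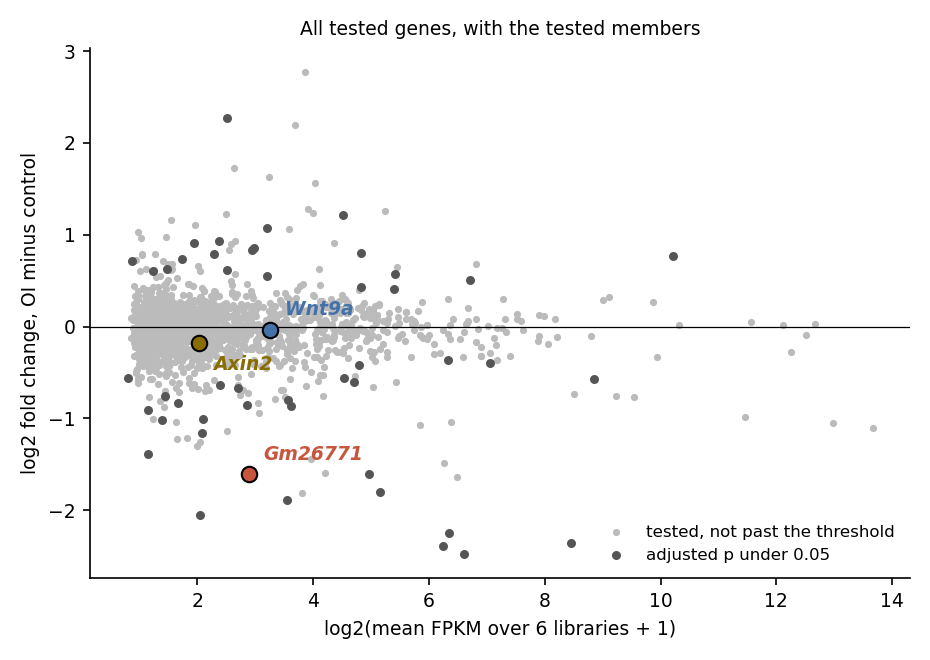
Log2 fold change on log2(FPKM + 1), OI minus control (vertical), against log2 of the mean FPKM + 1 over 6 libraries (horizontal), for all 1737 tested genes, with genes past an adjusted p of 0.05 in dark grey and the 3 tested members enlarged. Wnt9a (-0.04) and Axin2 (-0.18) lie within the cloud around 0, and Gm26771 (-1.61) lies among the lowest genes.

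The annotation places Gm26771 tail to tail with Sfrp2. Its transcript has 3 exons of 387, 471 and 224 bases, 1082 bases in all, and starts well beyond the end of Sfrp2. Exon 1 shares no base with Sfrp2, exon 2 shares 123 bases and exon 3 lies wholly within the last exon of Sfrp2, with 224 bases. All 347 shared bases fall in the 3′ UTR of Sfrp2 and make up 32.1% of the exonic bases of Gm26771 and 16.1% of those of Sfrp2. The other 735 exonic bases of Gm26771, which include the junction printed above, belong to no exon of Sfrp2. Sfrp2 itself was not analysed here, and no source used here gives the strand setting of the counting. Reads from the shared bases therefore cannot be assigned to one of the genes, and the share of the fall that came from them was not tested. For none of the 4 genes did a transcript of another gene match at 90% identity or more over at least 80% of the member's transcript.

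**Figure D3:**
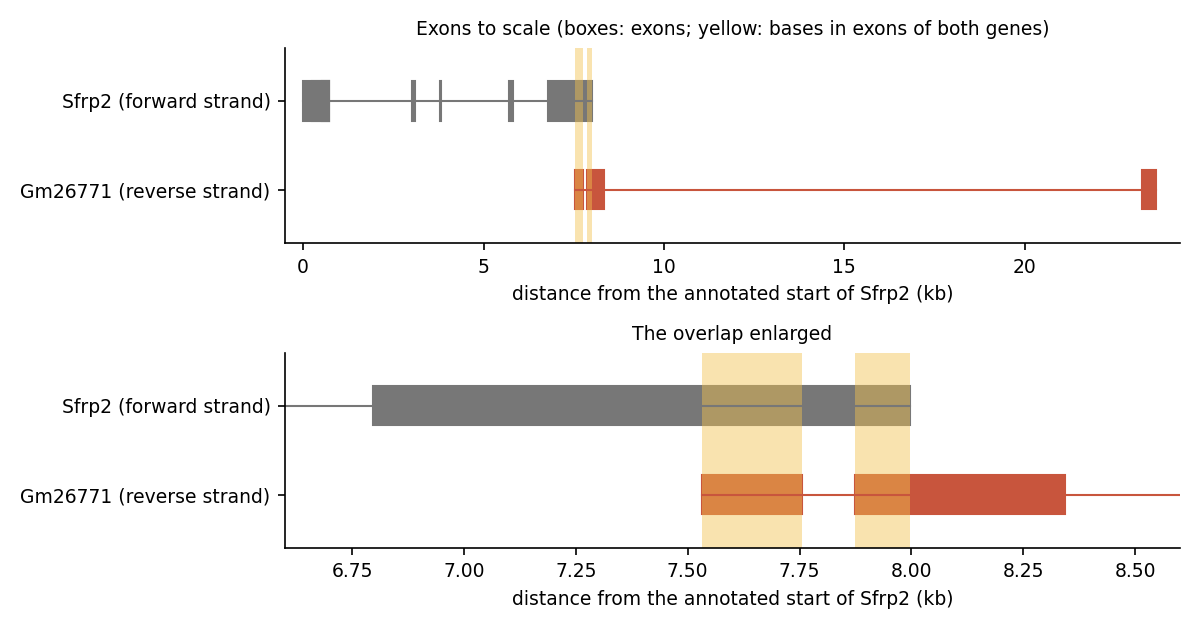
Exons (boxes) of Sfrp2 (grey, forward strand) and Gm26771 (red, reverse strand) drawn to scale against the distance in kilobases from the annotated start of Sfrp2, with the whole locus above and the overlap enlarged below. The yellow bands are the 347 exonic bases that both genes cover, in exons 2 and 3 of Gm26771, while exon 1 lies apart.

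The genes most alike to Gm26771 over the 6 libraries were Gm11747, an antisense gene (Pearson r = 0.999), and Gm27786, a short non-coding gene inside H19 (r = 0.997). Gm11747 had 13.9, 14.5 and 13.6 FPKM in the control libraries and 7.59, 7.65 and 7.54 FPKM with OI (limma adjusted p = 0.00229). Gm27786 ranged from 572 to 602 FPKM in control and from 107 to 121 FPKM in OI (limma adjusted p = 5.1e-05). In all 3 genes the groups stood far apart, and these correlations include the step between the groups. Gm11747 and Gm27786 were picked for the highest r among all tested genes. Their separation and their adjusted p therefore follow in part from that choice and are no independent result.

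The order of the 4 levels differed between control and OI. In control it ran Gm26771, Wnt9a, Axin2 and Wnt3 from high to low, and no neighbours in that order overlapped. In OI Wnt9a was highest, Axin2 (2.69 to 2.97 FPKM) and Gm26771 (2.57 to 2.73 FPKM) overlapped, and Wnt3 was last. Within single libraries the ratio of Gm26771 to Wnt9a was 1.17 ± 0.0939 in control and 0.315 ± 0.0126 in OI (SD, n = 3 each). That of Gm26771 to Axin2 was 3.05 ± 0.106 and 0.940 ± 0.0745. For both ratios the groups did not overlap (exact two-sided permutation test on log2 ratios, p = 0.1, the smallest possible). The order and both ratios rest on the level of Gm26771 already described. That level covers bases shared with Sfrp2, where reads cannot be assigned to one of the genes. The ratio of Wnt9a to Axin2 was 2.61 ± 0.140 in control and 2.99 ± 0.282 in OI, and there the groups overlapped (exact two-sided permutation test, p = 0.2).

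Beyond the members, little of the pathway could be read from the genes analysed. The Wnt lists, covering ligands, secretion, receptors, secreted modulators, R-spondins, cytoplasmic and nuclear components, targets and the non-canonical branches, held 146 distinct genes. Of these 4 were among the genes analysed, namely Wnt3, Wnt9a, Axin2 and Ccnd2. None of the 16 receptors, 14 secreted modulators or 16 nuclear factors was. Of the 3 tested, 0 passed limma at an adjusted p of 0.05, 1 had an unadjusted p under 0.05, and the median log2 fold change was -0.04. Over all 1737 tested genes 2.76% passed, 309 had an unadjusted p under 0.05, and the median was -0.02. The 1 with the lower unadjusted p was Ccnd2, cyclin D2, a cell cycle gene listed as a Wnt target. Ccnd2 had 23.6, 26.0 and 23.9 FPKM in the control libraries and 29.0, 28.3 and 27.5 FPKM with OI. All OI values lay above all control values, as they did in 11.1% of all tested genes. The log2 fold change of Ccnd2 was 0.20 ± 0.07 (SE, limma adjusted p = 0.228). Axin2 and Ccnd2, both listed as targets, thus had differences of opposite sign, neither past the threshold.

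Further genes lie over exons of Wnt pathway genes, as Gm26771 lies over Sfrp2. Of the 10 tested genes of this kind Gm26771 was the 1 past the threshold, and the other 9 had a median log2 fold change of 0.06, with 7 higher and 2 lower means in OI. Over all tested genes 774 means were higher and 963 lower. Over all tested antisense genes, 9 of 334 were called lower and 3 higher, with a median of -0.03. At cytoplasmic components, 9130221H12Rik over Gsk3a, a kinase of the beta-catenin destruction complex, averaged 7.92 ± 2.02 FPKM without and 8.20 ± 2.48 FPKM with OI (SD, n = 3 each; limma adjusted p = 0.965). Gm28192 over Csnk1d, a casein kinase of the pathway, was at 3.13 ± 0.219 and 3.68 ± 0.235 FPKM (limma adjusted p = 0.337). At the cell surface, 9530082P21Rik over Kremen2, a receptor for the Wnt antagonists of the Dickkopf family, was at 5.39 ± 0.550 and 6.39 ± 0.346 FPKM (limma adjusted p = 0.303). In these last 2 genes, and in Gm26590 over Chd8, a chromatin remodeller known to restrain beta-catenin targets (3.23 and 3.84 FPKM, limma adjusted p = 0.388), all OI values lay above all control values, as they did in 11.1% of all tested genes.

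The remaining genes of this kind had log2 fold changes between -0.08 and 0.18. Gm37401 over Rhoa, a small GTPase of the non-canonical branch, was the most abundant, at 99.0 FPKM without and 103 FPKM with OI. Gm43126 over Ccnd2 stood at 22.3 and 25.4 FPKM. At nuclear components, Gm13066 over Ctnnbip1, an inhibitor of beta-catenin, was at 3.82 and 3.86 FPKM, and Gm47205 over the co-activator Bcl9l at 1.81 and 1.74 FPKM. Junos over Jun, an AP-1 subunit, was at 1.27 and 1.16 FPKM. Limma adjusted p-values of these 5 lay between 0.378 and 0.971. The share of exonic bases that lies in the partner's exons was 93.4% for Gm37401, 86.7% for Gm43126, 81.4% for Gm13066, 67.8% for Gm26590 and 52.0% for 9130221H12Rik. It was 28.9% for Gm47205, and only 8.1% for Gm28192, 5.6% for Junos and 4.1% for 9530082P21Rik. With the strand setting unknown, reads of these genes and of their coding partners cannot be told apart over the shared bases.

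**Figure D4:**
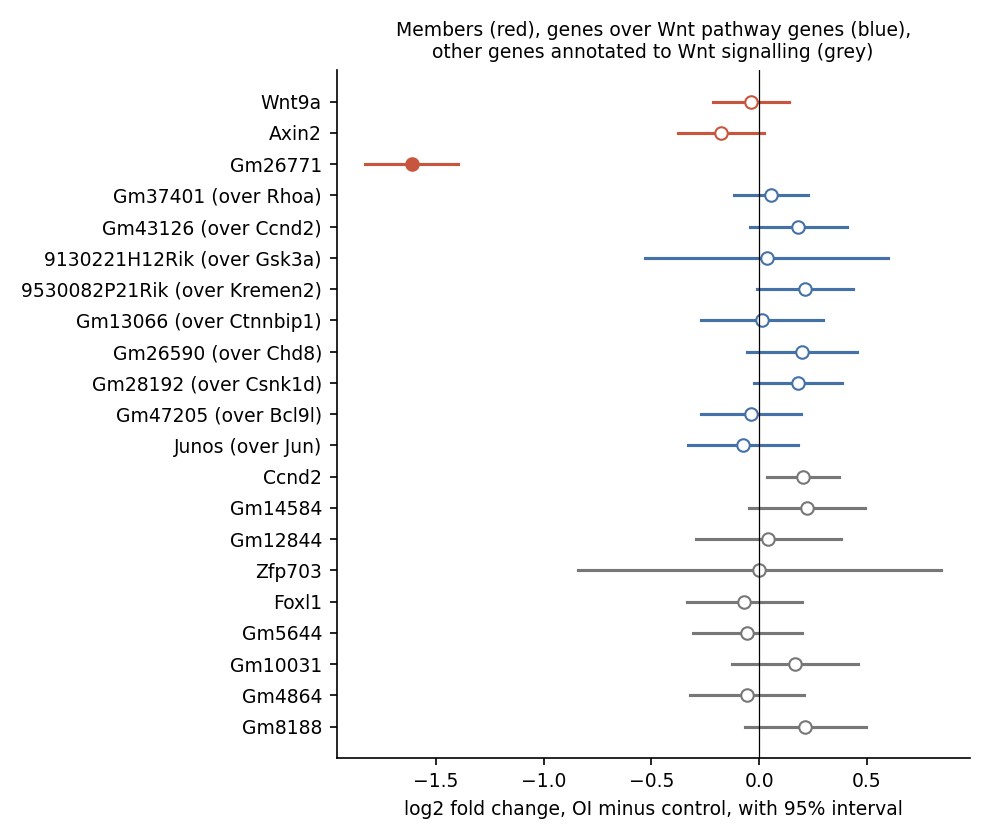
Log2 fold change on log2(FPKM + 1), OI minus control, with its 95% interval for the 3 tested members (red), 9 tested genes over exons of Wnt pathway genes (blue) and 9 other tested genes annotated to Wnt signalling (grey), with filled circles for an adjusted p under 0.05. Gm26771 at -1.61 is the 1 filled circle, and every other interval but that of Ccnd2 includes 0. The grey genes include processed pseudogenes.

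The authors' deposited tables also annotate genes to pathways, and this annotation was taken up after the values were seen. KEGG's Wnt signaling pathway or a Gene Ontology term with Wnt signaling was given for 127 of the genes analysed, of which 98 were pseudogenes, 25 were protein-coding and 80 were at 0 in every library. Of the 11 tested 0 passed limma at an adjusted p of 0.05 and 1, Ccnd2, had an unadjusted p under 0.05, with a median log2 fold change of 0.00 and 6 higher against 5 lower means in OI. The same over all 1737 tested genes was 2.76% called, 309 with an unadjusted p under 0.05, and 774 higher against 963 lower means. The 11 are no separate look at the pathway, as they include Wnt9a, Axin2 and Ccnd2, already counted from the lists. They also include the processed pseudogenes Gm14584, Gm12844, Gm5644, Gm4864 and Gm8188. Foxl1, a forkhead factor, averaged 1.77 ± 0.211 FPKM without and 1.64 ± 0.226 FPKM with OI (SD, n = 3 each). Zfp703, a zinc finger repressor, was at 7.42 ± 0.838 FPKM in control, and in OI replicates 1 to 3 at 9.85, 3.71 and 10.6 FPKM. As with Wnt9a, OI replicate 2 was the lowest library for Zfp703.

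**Figure D5:**
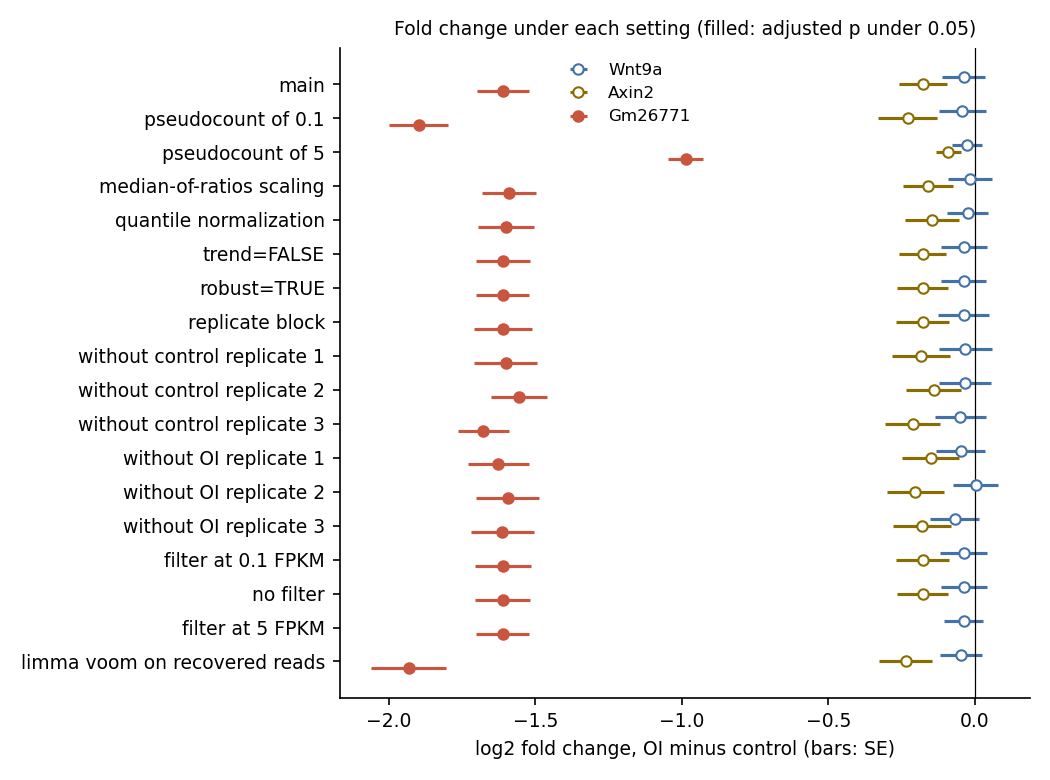
Log2 fold change, OI minus control, with its SE for Wnt9a (blue), Axin2 (brown) and Gm26771 (red) under the main setting and each of 17 alternatives, filled where the adjusted p is under 0.05. Gm26771 is filled and below 0 in every row, from -1.93 to -0.99, Axin2 is open and below 0 wherever it could be fitted, and Wnt9a stays within 0.07 of 0.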

How the data were processed

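RNA-seq libraries of 3 control and 3 OI samples of C2C12 cells at day 7 were analysed, and a further 3 samples per group were not analysed here. Per the labels' protocols, RNAiso Plus was used for extraction and a TruSeq kit for library preparation. The submitters' processing notes name cutadapt 2.7, HISAT2 2.1.0, StringTie 1.3.3b and the build mm10. The authors deposited FPKM values per gene, 1 table per sample. No source used here gives the strand setting or the read layout. Of 27943 rows, 1 with a broken annotation was left out. In 1-exon genes FPKM times length fell on whole multiples of 1 step, within 0.01 for 100% of values, which gave library sizes. In genes of several isoforms recovered reads are approximate.

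Genes with 1 FPKM or more in at least 3 libraries were fitted on log2(FPKM + 1) with limma 3.58.1 (R 4.3.3, trend=TRUE, two-sided, Benjamini-Hochberg over all 1737 genes, threshold 0.05), and the fit was tested on simulated data. Wnt3 missed every filter; the fit with no filter gave it a log2 difference of -0.01, and no fold is drawn from it. Single values were compared by exact permutation over libraries. Exons came from GENCODE M21, in which 27864 of the gene identifiers were found, promoters from RefSeq and near-identical transcripts from BLAST 2.17.0. Permutation tests used SciPy 1.17.1 under Python 3.11.15. Named genes were the members and Wnt list genes analysed with a mean of 0.1 FPKM or more. Up to 10 tested genes over exons of any Wnt list gene, analysed or not, were also named. So were the 2 genes most alike to each member by Pearson r, neighbours within 20000 bases and cell type markers. The members and lists were chosen with earlier results of these data known.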

Additional observations from a re-analysis of the deposited data

How the results depend on the processing

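Gm26771 passed the threshold under all 17 alternatives, with log2 fold changes from -1.93 (limma voom on recovered reads) to -0.99 (pseudocount of 5) and adjusted p from 0.000246 to 0.0144, the latter with the replicate block. Without 1 library they ran from -1.68 to -1.55. Axin2 was lower under 16 alternatives (-0.24 to -0.09) and passed in none, and a filter at 5 FPKM left it out. Wnt9a kept its sign except without OI replicate 2, where its log2 fold change was 0.0032 and its mean difference 0.0220 FPKM. Without 1 library at a time the log2 value ran from -0.069 to 0.0032 and the difference from -0.446 to 0.0220 FPKM. For Wnt3 no value could be had without control replicate 1, with a filter or on recovered reads. Genes called numbered 48, against 17 with the replicate block, 14 with no filter (of 10948 genes), 62 with limma voom (of 3066), and 15 (without OI replicate 2) to 27 (without control replicate 3) when 1 library was left out. The lower counts came with fewer samples, fewer residual degrees of freedom or more genes tested, and their cause was not tested further. Calls among Wnt list genes stayed at 0 and among genes over them at 1 in all 17. Same-numbered libraries deviated together with r of 0.047, 0.138 and -0.084, and not every library correlated best with its own number, so the numbers were not taken as pairs; the block ended no call of a member. Scaling moved the median of all tested genes from -0.02 to -0.01 (median-of-ratios) or 0.01 (quantile). Depth limits Wnt3, at 2 reads in all.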

Other observations

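Genes over exons of other Wnt-related genes that missed the 1 FPKM filter were fitted with a filter at 0.1 FPKM in at least 3 libraries, where limma called 0.742% of 5257 genes at an adjusted p under 0.05, and the following were chosen after their values were seen. Gm43352, over the TCF/LEF-family factor gene Lef1, had 0.254, 0.363 and 0.479 FPKM in the control libraries and 0.620, 1.01 and 0.610 FPKM with OI. All OI values lay above all control values, on 19 to 44 reads in control and 48 to 112 in OI, with a log2 fold change of 0.35 ± 0.13 (SE, limma adjusted p = 0.383). Gm47040, over Fst, the gene of the secreted TGF-beta family antagonist follistatin, stood at 0.609, 0.379 and 0.386 FPKM in control and 0.206, 0.137 and 0.129 FPKM in OI. The groups did not overlap, but these are 7 to 9 reads in control and 2 to 4 in OI, with a log2 fold change of -0.33 ± 0.09 (SE, limma adjusted p = 0.248). With the 1 FPKM filter the groups did not overlap in 23.6% of all tested genes. That share was not computed for the lower filter, so the separation in Gm43352 and Gm47040 has no background here. Gm26704 over Fzd6 and Gm38058 over Fzd5, genes of Frizzled receptors, had mean levels of 0.280 and 0.763 FPKM in control and 0.152 and 0.551 FPKM in OI, and neither passed (limma adjusted p = 0.584 and 0.611). In both genes the groups overlapped. Of their exonic bases, 5.2% for Gm26704 and 28.2% for Gm38058 lie in exons of the receptor gene.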
